A study of Arabidopsis thaliana with 34 samples.

Results

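The core centromere zones of the *Arabidopsis thaliana* genome were examined as the places where 18 ChIP-seq peak lists fall closest to the centromeres. A zone was defined as the bases within 0.5 Mb of a fixed centre on each chromosome, at 15.09 Mb on chromosome 1, 3.61 Mb on chromosome 2, 13.59 Mb on chromosome 3, 3.96 Mb on chromosome 4 and 11.73 Mb on chromosome 5 of the TAIR10 genome. A peak, meaning an interval in which one immunoprecipitated library had more reads than its background, belonged to a zone when its midpoint lay inside it. By this rule 38642 of the 329774 peaks in the 18 lists were members, and 154940 more lay in the flanks, the bases from 0.5 to 2.5 Mb of the same centres. The 5 zones span 5 Mb and the flanks 20 Mb.

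The study asked how linker histone H1 and the RNA-directed DNA methylation pathway (RdDM) affect each other's place on chromatin. Each of 9 groups of antibody and genotype had 2 libraries, described as biological replicates, each with its own list. Antibodies against the silencing mark H3K9me2 were used in WT (the Col-0 accession) and in *h1*, the double mutant of *h1.1-1* and *h1.2-1*. An H1 antibody was used in WT, in the *nrpe1-11* mutant (*nrpe1*) and in ZF108DMS3, a line homozygous for a transgene that fuses DMS3 to a zinc finger and a FLAG tag. An antibody against NRPE1 was used in WT, *h1* and ZF108DMS3. SUVH1 was mapped through a FLAG-tagged SUVH1 transgene carried in *h1*, with no list from another genotype analysed here. The H1 and NRPE1 libraries of ZF108DMS3 came from the same chromatin. The labels call the material floral tissue, whereas the methods describe pooled seedlings of 10 to 12 days. No H1 list from *h1* and no NRPE1 list from *nrpe1* was used here, so the mutants could not be checked by the loss of their own protein.

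Plant centromeres are built on tandem satellite repeats surrounded by transposable elements, and in Arabidopsis this chromatin carries H3K9me2 and dense DNA methylation. H1 sits on the linker DNA between nucleosomes and is known to be abundant in such heterochromatin. NRPE1 is the largest subunit of RNA polymerase V, whose transcripts guide RdDM, and DMS3 belongs to the complex that brings this polymerase to DNA. SUVH1 binds methylated DNA and is known for promoting the expression of nearby genes.

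The sequence of the zones limits what short reads can show there. Of the 50-base sequences starting in the zones, 61.8% occurred once in the reference, against 86.5% in the flanks, and this share was 28.4% on chromosome 1, 63.6% on chromosome 2, 71.2% on chromosome 3, 79.9% on chromosome 4 and 65.8% on chromosome 5. The zone of chromosome 1 also held 10.1% of undetermined bases. RefSeq annotates 198 protein-coding genes, 811 pseudogenes (a class that here includes many remnants of transposable elements) and 79 noncoding RNA genes in the 5 zones. The most frequent spacing between identical bases in the zones was 178 bases, the size of the centromere satellite, and 85 windows of 1 kb matched themselves at that spacing over at least 70% of their bases. Of these windows 3 lay on chromosome 1, 15 on chromosome 2, 3 on chromosome 3, 34 on chromosome 4 and 30 on chromosome 5. A second repeat, with a unit of 159 bases, filled 46 windows of the zone of chromosome 1.

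One unit of each repeat is shown because later values refer to them. Sequences are from TAIR10.1, whose nuclear chromosomes have the lengths of TAIR10, on the plus strand, 5′ to 3′, and capitals mark CG dinucleotides, where plant methylation is most stable.
178-base unit, chr3:13590001-13590178: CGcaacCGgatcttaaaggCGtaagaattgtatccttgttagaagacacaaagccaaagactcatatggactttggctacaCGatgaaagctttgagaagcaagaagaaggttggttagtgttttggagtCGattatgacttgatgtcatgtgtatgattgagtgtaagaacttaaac
159-base unit, chr1:14824001-14824159: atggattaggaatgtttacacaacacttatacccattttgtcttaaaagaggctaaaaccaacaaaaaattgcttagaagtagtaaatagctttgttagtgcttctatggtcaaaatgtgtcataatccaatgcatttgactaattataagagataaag
The first unit, which starts at the centre of the zone of chromosome 3, held 5 CG sites and the second held 0.

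The next 5 sequences are the 300 bases around the summit of the first-ranked region of 5 classes, to show the DNA at a top-ranked place of each kind. They are not the places of highest fold in every class. Regions were ranked by the mean position of their peaks within each list, by −log10 p.
NRPE1 in all 6 NRPE1 lists, chr2:3985945-3986244: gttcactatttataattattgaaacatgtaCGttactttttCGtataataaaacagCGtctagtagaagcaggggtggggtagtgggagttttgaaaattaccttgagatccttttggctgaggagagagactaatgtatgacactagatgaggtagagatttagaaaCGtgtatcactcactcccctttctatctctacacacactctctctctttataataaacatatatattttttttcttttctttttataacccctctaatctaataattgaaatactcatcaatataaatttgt
NRPE1 gained in *h1*, chr3:13537598-13537897: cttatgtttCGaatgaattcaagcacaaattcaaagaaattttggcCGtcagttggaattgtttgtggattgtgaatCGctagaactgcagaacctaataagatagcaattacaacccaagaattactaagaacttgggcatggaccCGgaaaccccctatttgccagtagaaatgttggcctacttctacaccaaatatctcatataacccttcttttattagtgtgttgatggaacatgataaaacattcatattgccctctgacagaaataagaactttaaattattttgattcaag
H1 in all 6 H1 lists, chr4:3851739-3852038: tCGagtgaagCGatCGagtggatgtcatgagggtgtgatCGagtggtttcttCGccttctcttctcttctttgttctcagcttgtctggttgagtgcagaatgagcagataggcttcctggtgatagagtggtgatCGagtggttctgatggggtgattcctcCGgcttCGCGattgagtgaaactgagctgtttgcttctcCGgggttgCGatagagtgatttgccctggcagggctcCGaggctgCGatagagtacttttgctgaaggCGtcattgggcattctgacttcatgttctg
H3K9me2 in all 4 H3K9me2 lists, chr3:13598470-13598769: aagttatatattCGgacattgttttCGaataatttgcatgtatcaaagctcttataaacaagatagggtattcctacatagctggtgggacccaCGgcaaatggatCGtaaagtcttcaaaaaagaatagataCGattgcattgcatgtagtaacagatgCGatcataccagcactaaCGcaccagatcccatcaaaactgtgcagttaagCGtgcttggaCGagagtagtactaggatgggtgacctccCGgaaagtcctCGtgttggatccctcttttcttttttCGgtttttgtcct
SUVH1 in both SUVH1 lists, chr3:13709829-13710128: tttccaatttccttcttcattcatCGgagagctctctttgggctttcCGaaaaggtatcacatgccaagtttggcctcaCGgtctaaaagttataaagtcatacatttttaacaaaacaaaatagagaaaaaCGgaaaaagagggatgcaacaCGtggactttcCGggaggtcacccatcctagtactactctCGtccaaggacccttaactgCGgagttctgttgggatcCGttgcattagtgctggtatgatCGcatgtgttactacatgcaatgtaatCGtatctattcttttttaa
The NRPE1 windows held 4 CG sites each with GC contents of 32.3% and 35.7%, whereas the H1 window held 14 with a GC content of 51.3%. The H3K9me2 and SUVH1 windows held 12 and 11, at 41.7% and 41.3%. These last windows, both from the zone of chromosome 3, shared a run of 45 bases on opposite strands. As an exact match on either strand, that run occurred 5 times in this zone and 0 times in the other zones or in the flanks. Copies with mismatches were not counted. All 5 copies were covered in each of the 4 H3K9me2, 6 H1 and 2 SUVH1 lists and in 1 WT NRPE1 list, and 4 of them in each of the other 5 NRPE1 lists. None of the 50-base sequences starting in the H1 and SUVH1 windows occurred once in the genome.

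H3K9me2 covered nearly the whole of the zones and H1 most of them, and both were denser there than in the flanks, whereas NRPE1 and SUVH1 were about as dense as in the flanks or less so. In WT the H3K9me2 peaks covered 88.8% of zone bases in replicate 1 and 92.8% in replicate 2, against 40.0% and 48.4% of flank bases. WT H1 peaks covered 71.7% and 75.03% of zone bases, against 41.0% and 45.3% of flank bases. WT NRPE1 peaks covered 26.4% and 21.0% of zone bases, against 27.1% and 27.8% of flank bases. SUVH1 in *h1* covered 23.5% and 13.8% of the zones, against 22.9% and 16.0% of the flanks. In each of the 10 H3K9me2 and H1 lists the zones were more densely covered than the flanks, by 1.64 to 2.25 times. In the 8 NRPE1 and SUVH1 lists this ratio lay between 0.545 and 1.03.

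**Figure D1:**
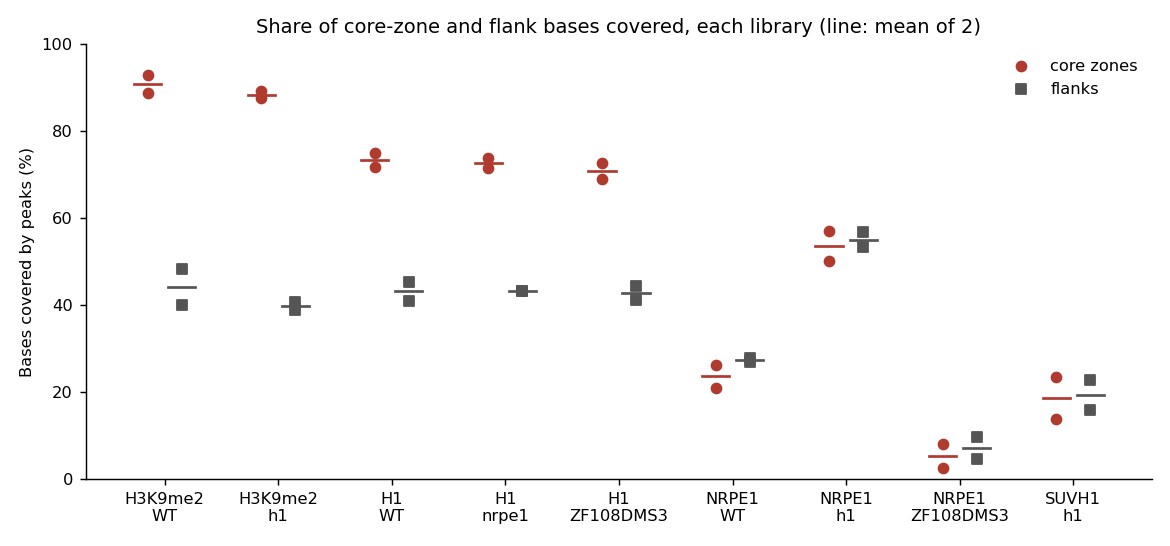
Percentage of bases covered by peaks (y axis) in core zones (circles) and flanks (squares) for each of the 9 groups, with 1 point per library and a line at the mean of the 2. H3K9me2 and H1 zone points lie between 69.0% and 92.8%, above their flank points, and the *h1* NRPE1 points (50.2% and 57.0%) lie above those of WT (21.0% and 26.4%) and ZF108DMS3 (2.51% and 8.04%).

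The lists also differed in the shape of their peaks. Zone peaks of H3K9me2 were few and wide, with 1091 and 607 in WT, median widths of 953 and 1351 bp and the widest at 166 and 194 kb. WT H1 gave 2937 and 2356 zone peaks with median widths of 601 and 591.5 bp. WT NRPE1 gave more and narrower ones, 3163 and 2934, with median widths of 259 and 243.5 bp, and SUVH1 in *h1* gave 2630 and 1672 with medians of 318 and 284 bp. Peaks of H3K9me2 and H1 were wider in the zones than in the flanks, where the WT medians were 447 and 483 bp for H3K9me2 and 369 and 396 bp for H1. Peaks of NRPE1 were narrower in the zones than in the flanks in all 6 lists, with WT flank medians of 306 and 317 bp.

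**Figure D2:**
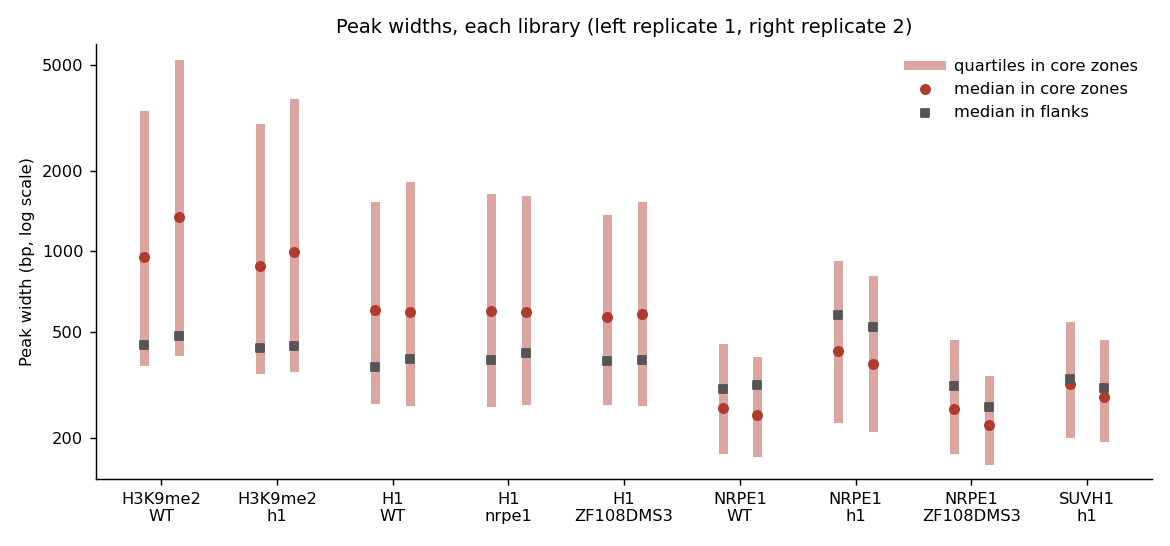
Width of core-zone peaks in each library (y axis, bp, log scale), with the median as a circle, the quartiles as a bar and the median of flank peaks as a square. The H3K9me2 and H1 circles lie above their squares and the NRPE1 and SUVH1 circles below theirs.

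Libraries of one group did not always resemble each other. The ZF108DMS3 NRPE1 list of replicate 1 held 303 zone peaks, 1.67% of its peaks, and that of replicate 2 held 1277, or 6.27%, whereas in the other 16 lists the zones held 8.91% to 15.6% of the peaks. The bases covered in both replicates made up 0.246 of those covered in either for this group, 0.368 for WT NRPE1, 0.679 for *h1* NRPE1 and 0.329 for SUVH1. The same share was 0.838 to 0.925 for the 5 H3K9me2 and H1 groups. With 2 libraries per group, the exact permutation test of libraries cannot give a two-sided p below 0.333, so no difference given here could pass 0.05, and each is set against the gap between replicates instead. The Benjamini-Hochberg adjusted values over the 20 tests of zone coverage, peak number, median width and zone minus flank coverage were 0.889 or 1. The p values of single zones, other sets of bases and alternatives were not adjusted.

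NRPE1 in *h1* against WT addresses whether the polymerase spreads into heterochromatin when H1 is missing. NRPE1 peaks covered 57.0% and 50.2% of zone bases in *h1*, and both values lay above the 26.4% and 21.0% of WT. The means were 53.6% ± 4.83 and 23.7% ± 3.81 (SD, n = 2), a difference of 29.9 percentage points or 2.26-fold, with replicate gaps of 6.83 and 5.39 points (exact permutation p = 0.333, the smallest possible). The *h1* lists held 3728 and 3776 zone peaks against 3163 and 2934 in WT, a difference of 703.5 peaks. Their median width was 423 and 379 bp against 259 and 243.5 bp, a difference of 149.75 bp. Neither measure overlapped between genotypes (exact permutation p = 0.333 for each). Peaks over 1 kb made up 22.3% and 18.5% of zone peaks in *h1* and 6.54% and 4.77% in WT.

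The difference appeared in each of the 5 zones. On chromosome 4, the zone with the highest values, coverage was 70.9% and 64.1% in *h1* and 31.3% and 29.9% in WT. On chromosome 3 it was 59.6% and 53.9% against 26.03% and 22.7%, and on chromosome 2, 50.9% and 48.0% against 20.6% and 20.5%. On chromosome 5 it was 52.2% and 45.5% against 24.4% and 18.3%. Chromosome 1 had the widest spread, with 51.5% and 39.4% in *h1* and 29.7% and 13.6% in WT. The ratio of means ran from 2.101 on chromosome 1 to 2.41 on chromosome 2, and no zone had overlapping genotypes (exact permutation p = 0.333 in each). The number of peaks differed less evenly, by 253.5 on chromosome 1, 217.5 on chromosome 3 and 181 on chromosome 5 but by 4.5 on chromosome 2 and 47 on chromosome 4.

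**Figure D3:**
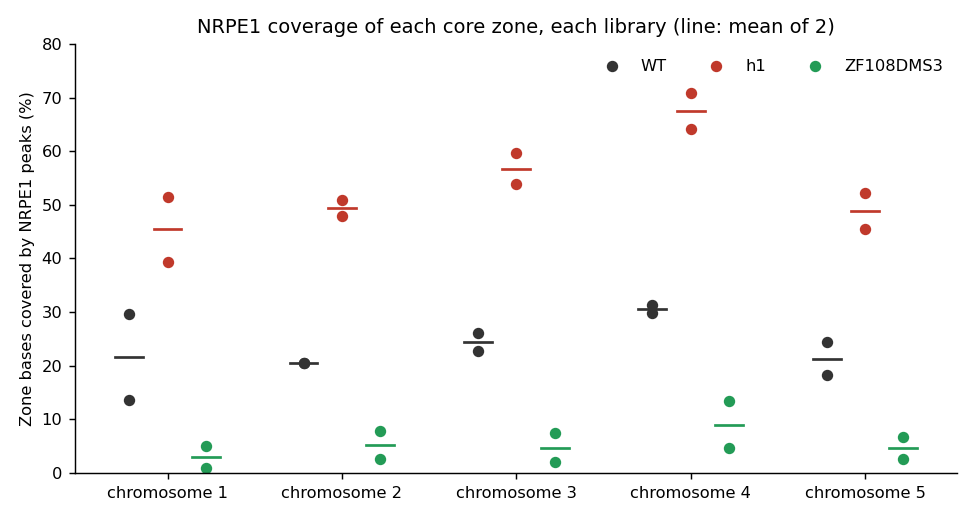
Percentage of each core zone covered by NRPE1 peaks (y axis) on the 5 chromosomes in WT, *h1* and ZF108DMS3, with 1 point per library and a line at the mean of the 2. In every zone the *h1* points lie above the WT points and the ZF108DMS3 points below them, and the widest WT spread is on chromosome 1 (13.6% and 29.7%).

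The flanks showed the same direction. Flank coverage was 56.8% and 53.3% in *h1* against 27.1% and 27.8% in WT, a difference of 27.7 points. Zone coverage minus flank coverage was 0.208 and -3.14 points in *h1* and -0.684 and -6.78 points in WT, which overlap (difference 2.26 points, exact permutation p = 0.667), and it turned to -0.784 without WT replicate 2. Over bases whose 50-base sequence occurs once, NRPE1 covered 63.4% and 58.0% of the zones in *h1* and 23.1% and 22.7% in WT, a difference of 37.8 points. On such bases the zones and flanks did separate the genotypes. Flank coverage there was 55.2% and 52.2% in *h1*, below the zones, and 25.5% and 28.1% in WT, above the zones, so that zone minus flank coverage differed by 10.9 points without overlap (exact permutation p = 0.333). Whether the genotypes overlapped in this measure thus depended on the bases counted.

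**Figure D4:**
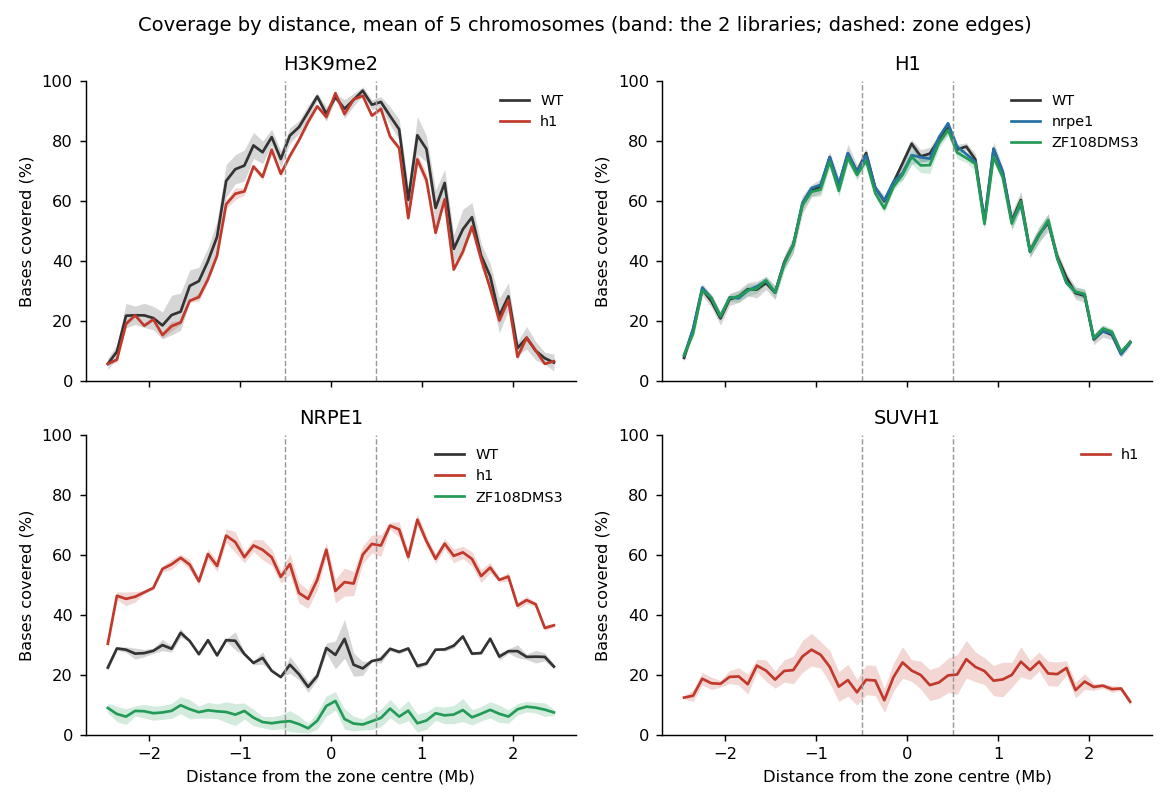
Percentage of bases covered (y axis) in bins of 100 kb by distance from the zone centre (x axis, Mb), averaged over the 5 chromosomes, with a panel per antibody, a line at the mean of 2 libraries and a band spanning them. Dashed lines mark the zone edges. H3K9me2 and H1 lines rise from the outer flanks to the zones, and the *h1* NRPE1 line lies above the WT line across the whole window, both in the zones and in the flanks.

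Peaks of the 4 lists were merged where they overlapped, and a merged region counted as gained when both *h1* lists and no WT list had a peak in it. Over the nuclear genome 10.7% of merged regions were gained by this rule, 2.48% were lost and 55.5% were in all 4 lists. In the zones 499 of 3286 regions were gained (15.2%), 20 were lost (0.609%) and 1071 were in all 4 (32.6%). The gained regions numbered 103, 59, 131, 87 and 119 on chromosomes 1 to 5, with a median width of 434 bp. In the flanks 12.8% of regions were gained. Leaving out a library relaxes the rule, so that the zone count can hardly fall, and gave 719 to 1277, the last without *h1* replicate 2. Joining peaks within 500 bp left 585 regions in the zones, of which 50 were gained. Counted by base, 951 kb or 19.0% of the zones was covered in both *h1* lists and neither WT list, against 0.462% in the reverse case.

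The gained bases differed from the constant ones in what else lay on them. WT H1 peaks lay on 88.3% and 92.3% of the gained bases, on 78.1% and 80.6% of the bases covered by NRPE1 in all 4 lists, and on 43.5% and 46.8% of the bases covered in no WT or *h1* NRPE1 list. This order was not particular to H1. WT H3K9me2 peaks lay on 94.2% and 98.3%, 87.0% and 92.2%, and 81.7% and 85.6% of the same sets in turn. Annotated pseudogenes made up 51.6% of the gained bases, 20.8% of the constant bases and 37.6% of all zone bases. SUVH1 showed another order, with peaks on 61.2% and 52.1% of the constant bases and on 22.5% and 9.61% of the gained ones. Once-occurring 50-base sequences began at 81.1% of gained, 58.8% of constant and 48.6% of NRPE1-free bases, so the sets differ in how well reads can be placed. The NRPE1-free set also held the whole 270 kb of the organelle-like stretch, and without it WT H1 lay on 52.2% and 56.1% of that set. Over once-occurring bases alone, WT H1 lay on 88.8% and 92.8% of the gained, 66.8% and 70.4% of the constant and 60.7% and 63.9% of the NRPE1-free bases, which kept the order with a smaller distance between the last and the first.

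Both pseudogenes and protein-coding genes were more often and more fully covered in *h1*. Of the 811 pseudogenes in the zones, 712 and 706 overlapped an NRPE1 peak in *h1* and 559 and 530 in WT, and the covered share of their bases was 61.9% and 54.6% against 19.7% and 15.8%. Of the 198 protein-coding genes, 94 lie in an organelle-like stretch of chromosome 2, described further on, where no NRPE1 list had a peak over a gene. All of those overlapping a peak were among the other 104, 80 and 79 in *h1* and 62 and 65 in WT. Over the 198 genes this gave 31.9% and 29.8% of bases covered in *h1* against 13.7% and 13.6%. For both kinds the *h1* values lay above both WT values.

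The named regions varied in how far they followed these totals. The first-ranked gained region was chr3:13537154-13537812, within the exon of AT3G33000, annotated as a pseudogene of a subunit of the ATPase F0 complex. Its fold enrichment over the local background was 3.31 and 3.74 in *h1*. No WT or ZF108DMS3 NRPE1 list and none of the 6 H1 lists had a peak there, while H3K9me2 covered at least 98.3% of it in each of 4 lists. The second, chr3:13536115-13536656, lay within AT3G32990, also a pseudogene, with folds of 3.91 and 5.53, and WT H1 covered 0% and 39.9% of it. The third, chr3:13984997-13986251, lay within the pseudogene AT3G33169 with folds of 5.45 and 6.84, and WT H1 covered 93.1% and 85.8% of it. The widest *h1* NRPE1 peak of each zone was taken from a single *h1* list, which set its edges. Full coverage in that list, and in part lower coverage in WT, thus follow from the choice. The widest *h1* NRPE1 peak of the zone of chromosome 5, chr5:11440875-11446744, spanned 5870 bp with 4 pseudogenes, and WT NRPE1 covered 8.74% and 12.7% of it. On chromosome 1 the widest, chr1:14734089-14742164, spanned 8076 bp, all of it within the protein-coding locus AT1G39070 and 74.2% of it intron, and there WT replicates 1 and 2 already covered 98.9% and 63.9%. The widest peaks of chromosomes 3 and 4, chr3:13386182-13392434 and chr4:3865061-3874131, spanned 6253 and 9071 bp, with 42.8% and 36.4% of the first and 98.03% and 70.4% of the second covered in WT. The widest of chromosome 2, 9266 bp long, lay in the second constant region described next.

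The first-ranked regions with NRPE1 in all 6 lists both lay on chromosome 2. The region chr2:3984887-3996428, which holds the pseudogenes AT2G10350 and AT2G10360 and lies over 49.5% of its length in them, had folds of 9.90 and 25.0 in WT, 16.5 and 23.2 in *h1* and 18.1 and 12.6 in ZF108DMS3. The share of it covered was 43.4% and 50.0% in WT, 98.2% and 98.3% in *h1* and 10.8% and 17.97% in ZF108DMS3. The fold therefore overlapped among the genotypes and the covered share did not. The edges of this region and the next are those of peaks merged over all 6 lists. Lists with wider peaks thus cover more of such a region in part by construction. The neighbouring region chr2:4006851-4019047, with 3 pseudogenes, the noncoding RNA AT2G05505 and AT2G10440, annotated as a mediator subunit of RNA polymerase II, was covered over 54.6% in each WT list and over 96.4% and 98.7% in the *h1* lists.

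Few regions went the other way. The first-ranked of the 20 lost in *h1* was chr4:4199389-4200227, which overlaps the start of the coding sequence of AT4G07400 (VFB3, an F-box protein gene on the minus strand) over 14.7% of its length and otherwise lies upstream. It had folds of 4.37 and 10.6 in WT, no *h1* peak, and no H1 peak in any of the 6 H1 lists, and ZF108DMS3 NRPE1 peaks covered 90.2% and 90.6% of it. The second, chr4:3895782-3896114, overlapped no annotated gene and was likewise covered in ZF108DMS3, over 98.2% and 93.1%. Leaving out a library, which relaxes the rule, gave a lost count of 36 to 207, the last without WT replicate 2.

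NRPE1 in ZF108DMS3 against WT addresses how the polymerase is distributed when DMS3 is tethered elsewhere. NRPE1 peaks covered 2.51% and 8.04% of the zones in ZF108DMS3, both below the 26.4% and 21.0% of WT. The means were 5.28% ± 3.91 and 23.7% ± 3.81 (SD, n = 2), a difference of -18.4 points or 0.223-fold (exact permutation p = 0.333, the smallest possible). Zone peaks numbered 303 and 1277 against 3163 and 2934, and their median widths of 257 and 224 bp overlapped the 259 and 243.5 bp of WT (exact permutation p = 0.667). With equal numbers of peaks per list, the strongest by −log10 p, the differences were -12.1 points, -957.5 peaks and -98.75 bp, and the widths no longer overlapped (exact permutation p = 0.333). That cut removed the weakest peaks of every list compared but ZF108DMS3 replicate 1, the shortest. It moved the mean of the median widths from 251.25 to 348.75 bp in WT and from 240.5 to 250 bp in ZF108DMS3. Flank coverage was 4.61% and 9.67% against 27.1% and 27.8%, and the difference between zones and flanks did not separate the genotypes (1.87 points, exact permutation p = 1). Depth and immunoprecipitation efficiency of the lists are unknown, and their part in the difference was not tested.

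Over the nuclear genome 12.7% of merged regions were gained in ZF108DMS3 and 15.9% were lost. In the zones 8 of 4031 regions were gained (0.198%) and 838 were lost (20.8%). Regions in all 4 lists made up 10.5% over the genome and 167 (4.14%) in the zones. In the flanks 1.52% were gained and 23.0% lost. Without ZF108DMS3 replicate 1 the zones held 170 gained of 4014 regions, without its replicate 2 they held 33 of 3914, and without WT replicate 2 they held 26 of 3409. The lost count was 2301 of 3409 without WT replicate 2 and 2074 of 3259 without WT replicate 1. Leaving out a library relaxes the rule, so a rise follows from it. The first-ranked gained regions, chr3:13484257-13484901 and chr3:13488989-13489427, lie at both ends of AT3G32920, annotated in the superfamily of P-loop nucleoside triphosphate hydrolases, and the second also reaches AT3G32930. Their folds were 11.4 and 5.78, and 8.42 and 5.00, with no WT or *h1* NRPE1 peak and no H1 peak in any list.

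The satellite departed from this pattern. ZF108DMS3 NRPE1 peaks covered 47.7% and 53.2% of the 178-base repeat windows, within the range of *h1* (46.7% and 54.6%) and overlapping WT (33.7% and 51.6%). Outside these windows they covered 1.73% and 7.26% of the zones. Coverage of the windows in ZF108DMS3 differed by chromosome. It was 91.1% and 93.6% on chromosome 1, 58.8% and 60.8% on chromosome 2, and 66.7% in both lists on chromosome 3. On chromosome 4 it was 62.0% and 73.6%, and on chromosome 5 19.6% and 20.8%. The WT lists differed most on chromosome 1 (15.7% and 83.4%) and chromosome 3 (0% and 66.7%). The repeat windows are 1.7% of zone bases, yet they held 32.2% and 11.2% of the zone bases covered in ZF108DMS3, against 2.17% and 4.18% in WT and 1.39% and 1.85% in *h1*. By distance, the inner 100 kb on each side of the centre was covered over 7.20% and 13.7% in ZF108DMS3, and each 100-kb step further out over 0.896% to 1.87% in replicate 1 and 5.01% to 8.06% in replicate 2. Of the 50-base sequences in the repeat windows 38.5% occurred once in the reference. On the satellite the NRPE1 values of WT overlapped those of both other genotypes (*h1* minus WT 7.98 points and ZF108DMS3 minus WT 7.75 points, exact permutation p = 0.667 for each). SUVH1 covered 46.5% and 46.2% of the repeat windows, against 23.1% and 13.3% of the rest of the zones.

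**Figure D5:**
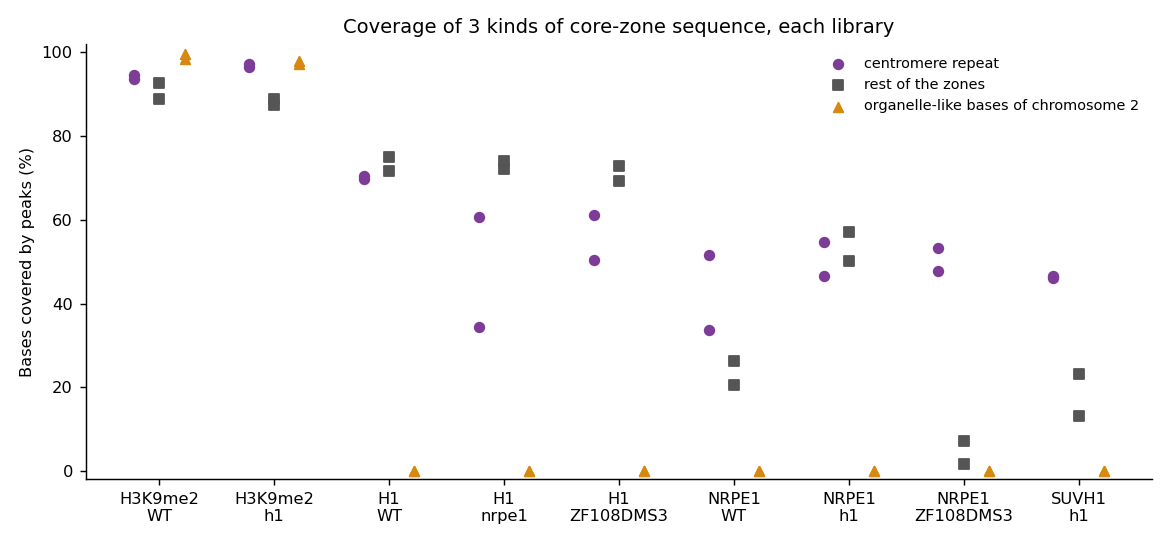
Percentage of bases covered by peaks (y axis) in each library for the 178-base centromere repeat windows (circles), the rest of the core zones (squares) and the organelle-like bases of chromosome 2 (triangles). ZF108DMS3 NRPE1 circles (47.7% and 53.2%) lie far above its squares (1.73% and 7.26%), and the triangles lie between 97.3% and 99.6% for H3K9me2 and at 0.098% or below for every other antibody.

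H1 in *nrpe1* and in ZF108DMS3 against WT addresses the reverse question, whether losing or tethering the RdDM machinery changes H1. H1 peaks covered 73.7% and 71.6% of zone bases in *nrpe1* and 71.7% and 75.03% in WT. The means of 72.7% ± 1.52 and 73.4% ± 2.35 (SD, n = 2) differed by -0.714 points, less than either replicate gap (exact permutation p = 0.667), and the sign turned without WT replicate 2 (0.949) or *nrpe1* replicate 2 (0.359). In ZF108DMS3 coverage was 69.0% and 72.7%, with a mean of 70.8% ± 2.59 (SD, n = 2), which overlapped WT (difference -2.52 points, exact permutation p = 0.667). Zone peaks numbered 2437 and 2445 in *nrpe1* and 2943 and 2499 in ZF108DMS3, both within or overlapping the 2937 and 2356 of WT. Median widths were 600 and 595 bp in *nrpe1*, between the 601 and 591.5 bp of WT, and 568 and 584 bp in ZF108DMS3, below both WT values (difference -20.25 bp, exact permutation p = 0.333), although this difference was 7.5 bp without the zone of chromosome 4. Zone minus flank coverage was 27.9 and 28.3 points in ZF108DMS3 and 30.7 and 29.7 in WT (difference -2.11 points, exact permutation p = 0.333). These values did not overlap, and leaving out any 1 library kept the sign, from -2.58 to -1.63 points.

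Over the nuclear genome 2.68% of merged H1 regions were gained in *nrpe1* and 3.35% lost, and in the zones 17 of 1196 were gained (1.42%) and 34 lost (2.84%). Those in all 4 lists made up 23.3% over the genome and 710 (59.4%) in the zones. In ZF108DMS3 2.96% were gained and 3.04% lost over the genome, and 11 of 1237 (0.889%) and 46 (3.72%) in the zones, with 23.1% over the genome and 729 (58.9%) in the zones in all 4 lists. Leaving out a library, which relaxes the rule, gave 47 to 89 gained and 72 to 133 lost in *nrpe1*. In ZF108DMS3 it gave 30 to 66 gained and 76 to 165 lost. The H1 lists differed most over the satellite, where WT covered 70.5% and 69.8% of the repeat windows, *nrpe1* 60.8% and 34.4%, and ZF108DMS3 50.5% and 61.2%. Both genotypes lay below both WT libraries (differences of -22.6 and -14.3 points, exact permutation p = 0.333 for each). The *nrpe1* libraries differed from each other by more than the means of the genotypes did. The part of read placement in this was not tested. The first-ranked H1 regions were chosen for strong peaks in all 6 H1 lists, so high coverage in each list follows from the choice. The first, chr4:3807043-3880086, is a 73044-bp stretch holding 10 pseudogenes, and H1 covered 92.8% to 96.9% of it in all 6 lists with folds of 6.69 to 9.23. The second, chr5:11313416-11332326, holds 2 pseudogenes and 1 noncoding RNA gene and was covered over 83.2% to 95.4%.

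H3K9me2 in *h1* against WT addresses whether the mark itself is altered when H1 is lost. H3K9me2 peaks covered 87.7% and 89.1% of the zones in *h1* and 88.8% and 92.8% in WT, which overlap. The means of 88.4% ± 1.02 and 90.8% ± 2.79 (SD, n = 2) differed by -2.42 points, within the WT gap of 3.94 points (exact permutation p = 0.667). Leaving out WT replicate 1 gave -4.40 points, and leaving out WT replicate 2 gave -0.453. The genotypes did not overlap with a half-width of 1 Mb (-4.34 points) or without the zone of chromosome 1 (-3.10) or 4 (-2.74), with exact permutation p = 0.333 for each. On chromosomes 2, 3 and 5 the *h1* libraries were both lower than the WT libraries, with 83.1% and 85.2% against 85.7% and 91.9%, 86.1% and 88.0% against 89.6% and 93.3%, and 93.7% and 95.1% against 95.9% and 97.4% (exact permutation p = 0.333 for each), and on chromosomes 1 and 4 the genotypes overlapped. Over bases whose 50-base sequence occurs once, both *h1* values were also lower, 86.9% and 88.8% against 89.1% and 93.7% (difference -3.54 points, exact permutation p = 0.333). Over the satellite the order was opposite, with 96.6% and 97.2% in *h1* and 93.5% and 94.5% in WT (exact permutation p = 0.333). Zone peaks numbered 985 and 859 against 1091 and 607. Over the nuclear genome 1.96% of merged regions were gained and 5.84% lost, and in the zones 1 of 383 was gained (0.261%) and 23 were lost (6.01%), with lost regions of 572 bp in median width. In all 4 lists were 27.4% over the genome and 246 (64.2%) in the zones. Leaving out a library gave 4 to 17 gained and 34 to 64 lost. The first-ranked constant regions, chr3:13595135-13685456 and chr3:13800469-13841140, hold 18 and 6 pseudogenes and were covered over 97.5% to 99.9% in the 4 lists. They were chosen for strong H3K9me2 peaks in all 4 lists, and merged H3K9me2 peaks set their edges. High H3K9me2 coverage in each list, and its distance from other antibodies, thus follow in part from the choice. WT NRPE1 covered 9.63% and 7.69% of the first and *h1* NRPE1 41.7% and 31.4%.

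One organelle-like stretch of the zone of chromosome 2 had peaks in the H3K9me2 lists and almost none in the others, in sequence where reads can hardly be placed. Between chr2:3240001-3510000, a span of 270 kb, most bases lie in 50-base sequences also found in the mitochondrial or chloroplast genome, and 25.998% of the zone's 50-base sequences were of this kind. Of the 50-base sequences starting in the stretch 4.04% occurred once, and 7.49% of its bases could be covered by such a sequence. Under the filter for uniquely placed reads, a list without peaks here cannot be read as absence of the protein, and the H3K9me2 peaks go against that filter. Over the zones as a whole, WT H1 peaks covered 53.3% and 57.1% of the bases that no once-occurring 50-base sequence covers. Why the lists differ on this stretch was not tested. The Arabidopsis genome is known to carry a large insertion of mitochondrial DNA at this place. H3K9me2 peaks covered 98.4% and 99.6% of the organelle-like bases of the zone in WT and 97.3% and 97.96% in *h1*. H1 peaks covered between 0.019% and 0.062% of them in 6 lists, NRPE1 peaks between 0 and 0.098% in 6 lists, and SUVH1 peaks 0. All 94 protein-coding genes, 44 pseudogenes and 47 noncoding RNA genes of the stretch overlapped a peak in each of the 4 H3K9me2 lists, and 0 did in any of the other 14 lists. The H3K9me2 share was nearly as high outside the stretch, with 101 to 104 of 104 protein-coding genes and 757 to 766 of 767 pseudogenes. Of the 104 protein-coding genes of the zones outside the stretch, 80 to 88 overlapped an H1 peak in each H1 list. The 4 H3K9me2 lists were also the only ones with peaks on the organelle genomes themselves, 130 and 105 in WT and 287 and 259 in *h1*, and the part of reads from organelles in this coverage was not tested.

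SUVH1 in *h1* was followed beside NRPE1 in *h1*. SUVH1 peaks covered 18.7% ± 6.85 (SD, n = 2) of the zones, with 2630 and 1672 peaks. NRPE1 peaks of *h1* lay on 82.3% and 74.2% of the bases of SUVH1 replicate 1 and on 88.6% and 81.5% of those of replicate 2, where they covered 57.0% and 50.2% of all zone bases. In the other direction SUVH1 peaks lay on 21.5% to 34.7% of *h1* NRPE1 bases. The overlap was not particular to NRPE1 in *h1*. On the bases of SUVH1 replicate 1, WT NRPE1 peaks covered 51.0% and 42.9%, against 26.4% and 21.0% of all zone bases. ZF108DMS3 NRPE1 peaks covered 7.89% and 20.7% of the same SUVH1 bases, against 2.51% and 8.04%. For WT H1 peaks these values were 90.8% and 92.6%, against 71.7% and 75.03%. The first-ranked SUVH1 regions were chr3:13709441-13710735 and chr4:3975887-3976905, both outside annotated genes and 120.1 and 16.4 kb from the centres of their zones. Their folds were 3.96 and 4.10, and 3.21 and 3.40. All 18 lists had peaks on both, over at least 91.4% of the first and 72.5% of the second, and 15.8% and 7.85% of their 50-base sequences occurred once.

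Read placement touched every list. Between 5.12% and 18.6% of the zone peaks of a list held no base that a once-occurring 50-base read could cover. The WT NRPE1 lists differed on such bases, with 33.6% covered in replicate 1 and 17.0% in replicate 2, while over the remaining zone bases they covered 23.6% and 22.5%. The *h1* NRPE1 lists covered 41.7% and 32.1% of the bases out of reach of such reads, which overlaps WT (exact permutation p = 0.667), and 62.9% and 57.2% of the remaining zone bases, above both WT values.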

How the data were processed

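ChIP-seq libraries of 9 groups with 2 replicates each were used, and 16 further samples of the series (H3 ChIP-seq and bisulfite sequencing) were not analysed here. Per the methods, the authors aligned reads of 50 bp to TAIR10 with Bowtie2 (v2.1.0), kept reads with a single perfect match, discarded duplicates (SAMtools) and ran MACS2 (v2.1.1) on each library. The control and the settings of peak calling are not given in the sources used here. The deposited lists give, per peak, an interval, a fold enrichment (a ratio over the background), −log10 p and −log10 q values and the offset of the summit. The lists hold no read counts, so depth is unknown and no interval for counting error is given.

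Coverage of bases, zone membership, merged regions, 50-base uniqueness (both strands, organelles included, reads taken singly) and overlaps with RefSeq annotation were computed with Python 3.11.15, NumPy 2.4.6 and pandas 2.3.3. Groups were compared by exact two-sided permutation of libraries. The merging and coverage steps were tested on simulated lists with known gained and lost regions. Repeat windows were 1-kb windows with at least 70% of bases equal to the base 1 unit further on, the unit being the spacing from 100 to 600 bases with the highest identity in the zones.

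Named regions were the first by mean within-list percentile of −log10 p: 2 NRPE1 regions in all 6 lists, 3 gained and 2 lost in h1, 2 gained in ZF108DMS3, 2 each for H1, H3K9me2 and SUVH1 in all their lists, and the widest h1 NRPE1 peak per zone. The zones and this rule were chosen with earlier results of these data known. Alternatives were a q cut, equal list lengths, other zone widths, leaving out zones or libraries, uniqueness and the replicate block. Nothing in the labels says that a replicate number marks a shared batch.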

Additional observations from a re-analysis of the deposited data

How the results depend on the processing

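Of 240 alternatives of the tested differences, 222 kept the direction and 18 reversed it, with exact permutation p from 0.333 to 1. The difference in NRPE1 coverage kept its sign under all of its alternatives, from 26.5 to 33.3 points in h1 and -21.2 to -15.6 points in ZF108DMS3 on leaving out a library. Without WT replicate 2 the NRPE1 difference between zones and flanks turned to -0.784 in h1 (range -0.784 to 5.31) and -1.18 in ZF108DMS3 (-1.18 to 4.91), and over once-occurring bases it was 10.9 in h1. The median width in ZF108DMS3 ranged from -27.25 to 5.75 bp on leaving out a library and was -98.75 bp with equal numbers of peaks, which also gave -957.5 peaks and -12.1 points. For H1 in nrpe1, leaving out a library gave -2.38 to 0.949 points of coverage (0.359 without nrpe1 replicate 2), -496 to 85 peaks, -3.50 to 6 bp (-1.25 without nrpe1 replicate 1) and -1.82 to 0.338 points between zones and flanks. Its median width was -22.25 bp with equal numbers of peaks, and -7.25, -17.75 and -3.00 bp without the zone of chromosome 2, 3 or 5, and without overlap 38.0 bp with a −log10 q of at least 3 and 19.75 bp without the zone of chromosome 4 (exact permutation p = 0.333 for each). For H1 in ZF108DMS3 the peak number ranged from -216 to 365 (-147.5 without its replicate 1) and the width was 7.5 bp without the zone of chromosome 4. For H3K9me2 in h1 coverage ranged from -4.40 to -0.453 points on leaving out a library and was -4.34 and -1.13 points with half-widths of 1 and 0.25 Mb, the median width of -213 bp lost its overlap with equal numbers of peaks (-230.5) and without the zone of chromosome 2 (-307.5), the peak number ranged from -169 to 315 and the difference between zones and flanks from -0.278 to 4.17 points. The cause of these reversals was not tested.

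Counts of gained and lost regions moved most. Merging peaks within 500 bp leaves fewer and wider regions. For NRPE1 it gave 50 gained and 3 lost of 585 zone regions in h1, and 4 and 388 of 1511 in ZF108DMS3. For H1 it gave 3 and 7 of 259 in nrpe1 and 1 and 10 of 263 in ZF108DMS3. For H3K9me2 in h1 it gave 0 and 1 of 85. Without this merging the totals were 3286, 4031, 1196, 1237 and 383 in turn, so the counts do not compare directly. Shares over the genome were not computed for the alternatives. Requiring an overlap of 0.5 gave 35 lost for NRPE1 in h1 and 27, 23 and 2 gained for H1 in nrpe1, H1 in ZF108DMS3 and H3K9me2 in h1. With a −log10 q of at least 3, NRPE1 in ZF108DMS3 had 5 gained. Leaving out a library makes a call rest on 3 lists, which relaxes the rule, so that a rise in the counts was set in advance. It gave 719 to 1277 gained and 36 to 207 lost for NRPE1 in h1, 10 to 170 and 849 to 2301 in ZF108DMS3, 47 to 89 and 72 to 133 for H1 in nrpe1, 30 to 66 and 76 to 165 in ZF108DMS3, and 4 to 17 and 34 to 64 for H3K9me2 in h1. The zone totals were then 3324 to 3900, 3259 to 4014, 1331 to 1418, 1354 to 1485 and 404 to 542 regions in turn. SUVH1 coverage was 13.8% to 23.5%.

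With the replicate number as a block the differences were the same by construction, such as 29.9 points for NRPE1 in h1, and the smallest p that the block allows is 0.5. These alternatives are counted among the 240 above and could not reverse. The alternatives for once-occurring sequences in the zone and flank difference, and those without the organelle-like stretch or the repeat, those of the base sets included, were chosen after seeing the data. With 2 libraries per group and unknown depth, a difference smaller than the gap between replicates could not be resolved.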

Other observations

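The 159-base repeat of the zone of chromosome 1 was covered unlike the 178-base repeat in the ZF108DMS3 NRPE1 lists. Over its 46 kb, NRPE1 peaks covered 51.8% and 28.2% in WT, 57.0% and 34.8% in h1 and 2.57% and 12.8% in ZF108DMS3. SUVH1 covered 58.7% and 46.2% of it, H1 between 82.3% and 88.2% in 6 lists, and H3K9me2 between 96.7% and 98.2% in 4 lists. The WT and h1 values of NRPE1 overlapped on this repeat, and replicate 1 was above replicate 2 in both genotypes.

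Noncoding RNA genes outside the organelle-like stretch numbered 32 in the zones. H1 peaks overlapped 25 to 29 of them in each of 6 lists. NRPE1 peaks overlapped 18 and 17 in WT, 22 and 22 in h1, and 2 and 13 in ZF108DMS3. SUVH1 peaks overlapped 15 and 7.

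The strongest single enrichments of the zones belonged to NRPE1, with a highest fold of 20.0 and 27.8 in WT, 23.0 and 31.5 in h1 and 18.1 and 13.1 in ZF108DMS3, against 9.81 and 12.7 for SUVH1, 7.06 to 9.23 in the 6 H1 lists and 8.54 to 10.8 in the 4 H3K9me2 lists. The lowest NRPE1 value and the higher SUVH1 value lay close together. The median fold of zone peaks differed far less, from 2.58 to 3.28 over the 18 lists.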
